A study of Mus musculus with 8 samples.

Results

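LIN28A, LIN28B and 7 further genes of the microRNA pathway were followed in mouse embryonic stem cells (ESCs) kept under different self-renewal signals. The members are Lin28a, Lin28b, Trim71, Dis3l2, Drosha, Dgcr8, Xpo5, Dicer1 and Ago2. They were chosen by name for their place in this pathway, with earlier results of these data known. Matching by gene symbol found all 9 among the 38991 genes of the expression tables. All 8 cultures were RGd2 cells (Rex1GFPd2, strain 129, passage 11), a line in which a destabilised GFP reports on the Rex1 (Zfp42) locus, grown without feeders on gelatin in N2B27 and derived and first expanded in 2i. There were 2 cultures in each of 4 conditions: 2i+LIF, which combines the GSK3 inhibitor CH (CHIR99021, 3 µM), the MEK inhibitor PD (PD0325901, 1 µM) and the cytokine LIF; 2i, which is CH and PD without LIF; LIF+PD, without CH; and CH+LIF, without PD. All 8 therefore share 1 cell line, the basal medium and an earlier history in 2i, and nothing in the sources says that the 2 cultures of a condition were kept apart from the start, so the tests measure the spread between these cultures, which may be technical. After expansion in 2i, the cells were kept for several passages in each of the 4 conditions. The comparisons therefore ask how the level of each gene differed in lasting culture without LIF, CH or PD, not soon after its removal.

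MicroRNAs are cut from long primary transcripts in the nucleus by the Microprocessor, made of the nuclease DROSHA and its RNA-binding partner DGCR8. Exportin 5, encoded by Xpo5, carries the resulting hairpin to the cytoplasm, where DICER1 cuts out the mature duplex and AGO2 holds 1 strand of it as the guide that finds target messengers. LIN28A and LIN28B bind the precursors of the let-7 family and keep them from being processed; the uridine tail that is then added marks the precursor for decay by the exonuclease DIS3L2. TRIM71 is a ubiquitin ligase and messenger repressor of the early embryo, and it is, like both LIN28 genes, a classical target of let-7, the family whose rise accompanies differentiation.

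The let-7 family is shown here because the first 4 members act on it or are repressed by it. The 8 mature let-7 forms below share 1 seed, the stretch of bases 2 to 8 that pairs with targets, given in capitals (RefSeq, GRCm38.p6).
let-7a-5p: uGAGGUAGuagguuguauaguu
let-7b-5p: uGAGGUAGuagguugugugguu
let-7c-5p: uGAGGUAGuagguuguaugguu
let-7d-5p: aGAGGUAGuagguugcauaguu
let-7e-5p: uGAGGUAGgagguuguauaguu
let-7f-5p: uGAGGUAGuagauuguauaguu
let-7g-5p: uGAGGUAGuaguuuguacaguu
let-7i-5p: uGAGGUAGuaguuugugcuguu

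LIN28 proteins recognise the letters GGAG in the loop side of the let-7 precursor. Of the 11 let-7 hairpins in the RefSeq table, 9 held GGAG after the mature arm and 2, let-7b and let-7c-2, did not. A pair with the letters, in capitals, and 1 without them are printed to show the difference.
Mirlet7a-1: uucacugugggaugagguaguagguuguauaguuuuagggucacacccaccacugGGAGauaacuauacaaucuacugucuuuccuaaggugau
Mirlet7g: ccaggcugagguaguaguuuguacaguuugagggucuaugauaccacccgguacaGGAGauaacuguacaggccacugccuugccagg
Mirlet7c-2: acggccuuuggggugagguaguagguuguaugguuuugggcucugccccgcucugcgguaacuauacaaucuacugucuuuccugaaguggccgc

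The values are FPKM, read counts scaled by transcript length and by the mapped reads of the library. They take length into account, which lets levels be set side by side between genes only as far as each gene's estimate holds. The FPKM of all genes summed to between 715575 and 875458 per culture, and Pearson's r of log2(FPKM + 1) between the 2 cultures of a condition was 0.974 to 0.983 over the genes tested. All 8 ESC markers on a fixed list were at 1 FPKM or more in every culture, with a summed level of 4406 to 5992. Against 2i+LIF, 1 of them was called higher and 2 lower in 2i, 2 higher and 1 lower in LIF+PD, and 1 higher and 2 lower in CH+LIF. The share of all genes tested that was called in either direction was 18.6% in 2i, 25.2% in LIF+PD and 25.4% in CH+LIF. Utf1 was higher than in 2i+LIF (78.1 FPKM) in 2i (271), LIF+PD (261) and CH+LIF (346), and Zfp42 in LIF+PD (256 against 205). Tdgf1 was lower in 2i (91.3 against 201), Esrrb in 2i (168) and LIF+PD (177, against 236), and Nanog (294 against 513) and Sox2 (166 against 231) in CH+LIF. Read numbers are unknown, but each value was deposited with a lower and an upper bound, whose level is not given in the sources used here. The bounds were widest in replicate 1 of 2i, with a median distance from their midpoint to either bound of 22.7% of the value against 15.2% to 17.0% in the other 7 cultures. They are not always centred on the value, and a value can lie outside its own bounds.

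Lin28a and Lin28b were lowest in 2i+LIF and highest in CH+LIF, Dicer1 and Drosha were higher in 2i and in CH+LIF than in 2i+LIF, Trim71 was highest in LIF+PD, and Ago2 passed no test. A gene was tested when it reached 1 FPKM in at least 2 cultures, which left 12927 genes and 8 of the 9 members. Dgcr8 was listed at 0 throughout and was not tested. Lin28b stayed under 1 FPKM in both 2i+LIF cultures and passed this filter only through the other conditions. Each comparison is a difference in log2(FPKM + 1) from 1 limma fit over all 8 cultures, called at an adjusted p below 0.05 over all genes tested, and it understates the fold change of genes with a low FPKM.

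**Figure D1:**
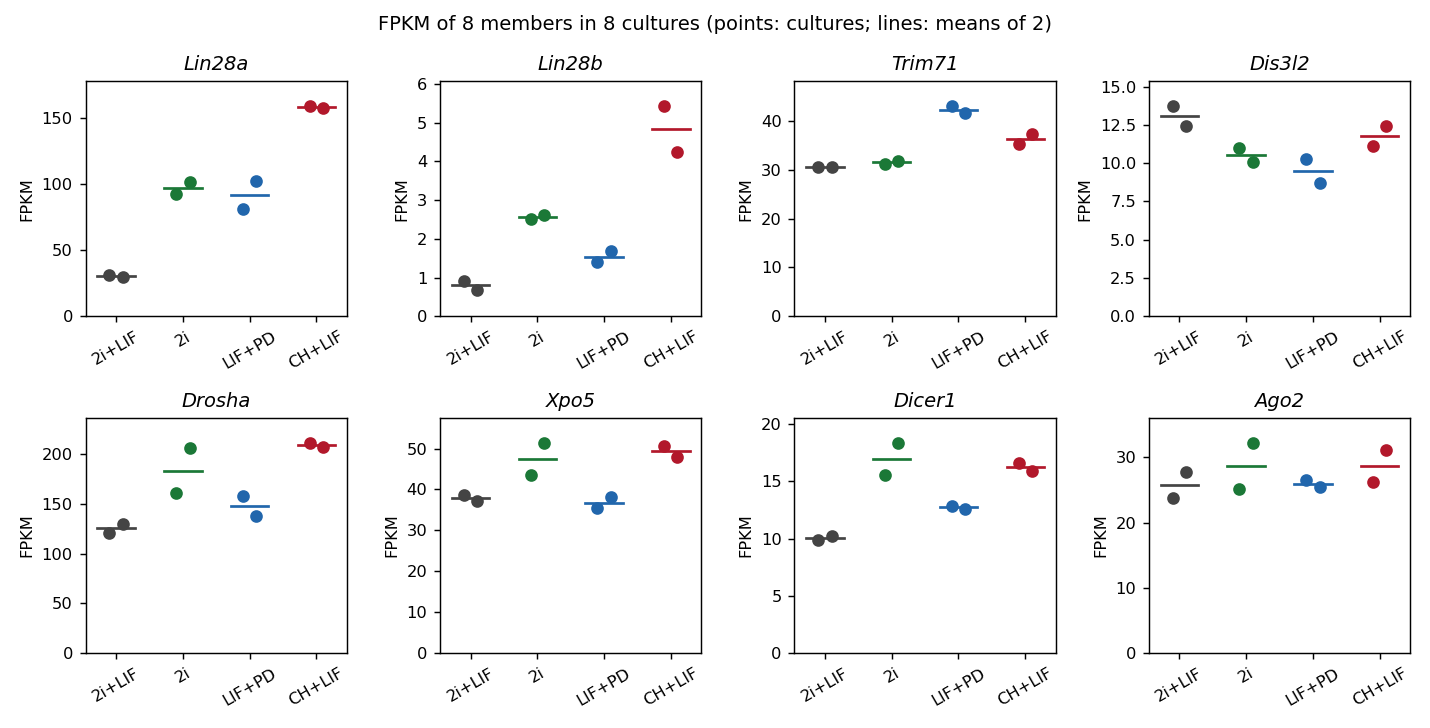
FPKM (linear axis from 0) of 8 members in each of the 8 cultures, grouped by condition, with points for cultures and lines for the mean of 2. Lin28a and Lin28b are lowest in 2i+LIF and highest in CH+LIF, Trim71 is highest in LIF+PD, and the Ago2 cultures of all conditions overlap. Dgcr8, listed at 0, is not drawn.

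Leaving out LIF called 4 of the 8 tested members, all higher in 2i than in 2i+LIF (Lin28a, Lin28b, Drosha and Dicer1). In that comparison 18.6% of all genes tested were called, 9.77% as higher and 8.86% as lower. Leaving out CH called 3 of 8 between LIF+PD and 2i+LIF, with Lin28a and Trim71 higher and Dis3l2 lower, where 25.2% of all genes were called, 14.8% as higher and 10.4% as lower. Leaving out PD called 5 of 8 between CH+LIF and 2i+LIF, all higher (Lin28a, Lin28b, Drosha, Xpo5 and Dicer1), where 25.4% of all genes were called, 12.2% as higher and 13.3% as lower. These 3 comparisons share the 2i+LIF cultures. The median log2 difference of the 8 tested members was 0.42 for 2i, 0.27 for LIF+PD and 0.50 for CH+LIF, beside 0.035, 0.034 and 0.007 over all genes tested. Because the members were chosen with earlier results of these data known, these counts and medians are descriptions only.

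Between the conditions with 2 of the 3 agents, LIF+PD against 2i called 3 of 8 members, with Trim71 higher and Dicer1 and Xpo5 lower, where 25.1% of all genes were called, 14.0% as higher and 11.1% as lower. CH+LIF against 2i called 2 of 8, with Lin28a and Lin28b higher, where 23.9% of all genes were called, 10.6% as higher and 13.3% as lower. CH+LIF against LIF+PD called 4 of 8, with Lin28a, Lin28b, Drosha and Xpo5 higher, where 30.4% of all genes were called, 12.6% as higher and 17.8% as lower. An F test over all 4 conditions called 6 of the 8 tested members (all but Dis3l2, adjusted p = 0.0831, and Ago2, adjusted p = 0.674) and 46.8% of all genes.

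The split of calls over all genes depended on the scaling. With values rescaled to a common sum (TPM), the median log2 difference over all genes went from 0.034 to 0.16 for LIF+PD and from 0.007 to 0.19 for CH+LIF, both against 2i+LIF. The share of called genes that were higher went from 58.6% to 74.8% for LIF+PD against 2i+LIF, from 47.9% to 74.1% for CH+LIF against 2i+LIF and from 44.5% to 64.1% for CH+LIF against 2i. No called member difference changed direction under TPM, size factors or quantile normalisation.

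**Figure D2:**
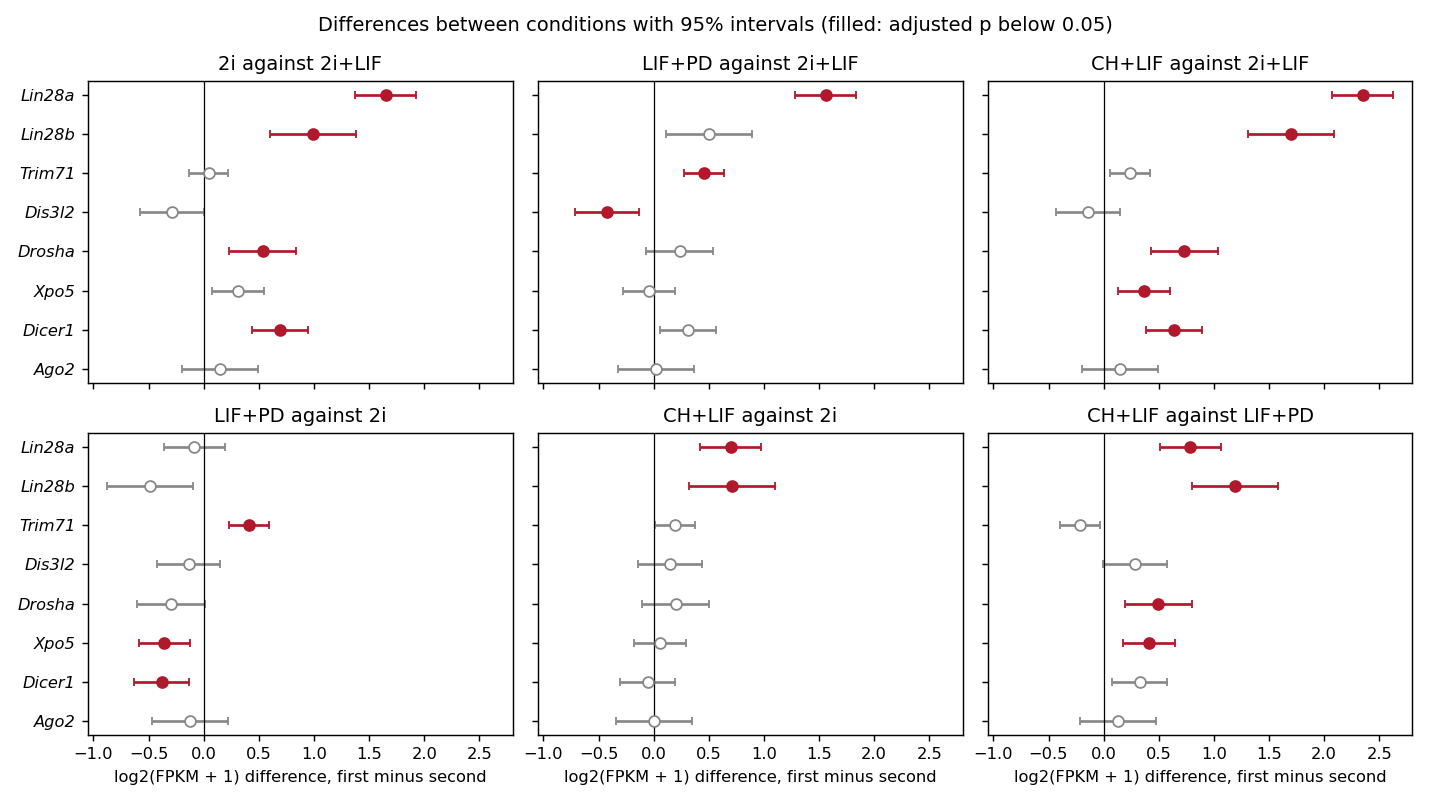
Difference in log2(FPKM + 1) between conditions (horizontal axis, first condition minus second) for the 8 tested members, with 95% intervals from the limma fit, 1 panel for each of the 6 comparisons. Filled red points have an adjusted p below 0.05: Lin28a is filled in 5 of the 6 panels, Lin28b in 4 and Ago2 in none.

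Lin28a (chr4:134003330-134018841 in mm10, minus strand), the LIN28 gene most strongly expressed in ESCs, stood at 31.2 and 29.4 FPKM in the 2i+LIF cultures, 92.9 and 101.9 in 2i, 81.5 and 102.8 in LIF+PD, and 159.1 and 158.1 in CH+LIF. The 2i+LIF cultures lay below the other 6 and the CH+LIF cultures above them, while those of 2i and LIF+PD overlapped. Its mean FPKM was 3.21 times that of 2i+LIF in 2i, 3.04 times in LIF+PD and 5.23 times in CH+LIF.

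On the log2 scale, Lin28a rose by 1.65 ± 0.12 (SE, n = 2 cultures per condition) in 2i, 1.56 ± 0.12 in LIF+PD and 2.35 ± 0.12 in CH+LIF, with limma adjusted p of 0.000263, 0.000288 and 0.000174. The CH+LIF difference had a larger absolute size than that of 99.3% of the genes tested, and the 2i difference than that of 97.5%. Lin28a was also higher in CH+LIF than in 2i (0.70 ± 0.12, adjusted p = 0.00686) and than in LIF+PD (0.79 ± 0.12, adjusted p = 0.00302). Between LIF+PD and 2i the difference was -0.09, with a 95% interval of -0.36 to 0.19 and an adjusted p of 0.631. The 5 calls of Lin28a held under all 18 alternatives tried.

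Lin28b (chr10:45376620-45470201, minus strand), its paralog, was at a much lower level. Its FPKM was 0.906 and 0.686 in 2i+LIF, 2.50 and 2.61 in 2i, 1.40 and 1.69 in LIF+PD, and 5.43 and 4.25 in CH+LIF. No 2 conditions overlapped, and the order from low to high was 2i+LIF, LIF+PD, 2i, CH+LIF. Within each culture, Lin28a had between 29.3 and 61.0 times the FPKM of Lin28b, with the 2 highest ratios (58.2 and 61.0) in LIF+PD.

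Lin28b rose by 0.99 ± 0.17 in 2i and by 1.70 ± 0.17 in CH+LIF against 2i+LIF (adjusted p = 0.00747 and 0.0011), with mean FPKM 3.21 and 6.08 times as high. In LIF+PD the mean FPKM was 1.94 times that of 2i+LIF and the difference of 0.50 ± 0.17 did not pass (adjusted p = 0.0648). Lin28b was higher in CH+LIF than in LIF+PD (1.19 ± 0.17, adjusted p = 0.00217) and than in 2i (0.71 ± 0.17, adjusted p = 0.0226), and LIF+PD and 2i, its neighbours in the order, differed by -0.49 with an adjusted p of 0.0715.

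At so low a level the size of the Lin28b difference follows the pseudocount: between CH+LIF and 2i+LIF it ran from 0.76 with a pseudocount of 5 to 2.46 with 0.1. The rise in 2i was not called without replicate 2 of 2i+LIF (adjusted p = 0.0515), and the rise from 2i to CH+LIF was not called without either 2i culture (0.0815 and 0.0621), without replicate 1 of CH+LIF (0.126) or with only those 4 cultures in the fit (0.0594). LIF+PD against 2i+LIF passed with a pseudocount of 0.1 (0.0398), as TPM (0.0413) and with no mean-variance trend (0.0398). LIF+PD against 2i passed with no mean-variance trend (0.0432) and with quantile normalisation (0.0404). The deposited lower bound of Lin28b lay 12.01% to 30.2% below the value and the upper bound 11.6% to 28.8% above it. For Lin28a the lower bound lay 5.51% to 9.19% below and the upper bound between 0.02% under the value and 10.03% above it.

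**Figure D3:**
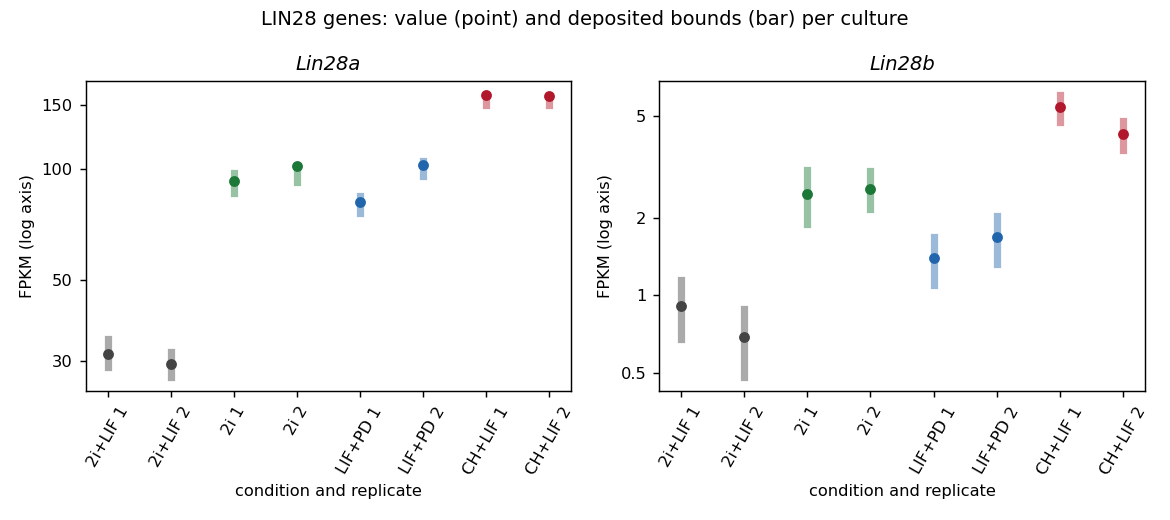
FPKM (log axis) of Lin28a and Lin28b in each culture as points, with the deposited lower and upper bounds as bars. For both genes the bars of 2i+LIF lie below those of 2i and CH+LIF. The bars of Lin28b are wider, and the Lin28a value of CH+LIF replicate 1 (159.1) lies just above its deposited upper bound.

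Cell type markers moved with some of these conditions, and their part in the LIN28 differences was not tested. The 9 mesoderm and endoderm markers summed to 13.9 and 16.3 FPKM in 2i+LIF, 13.5 and 24.9 in 2i, 10.5 and 10.8 in LIF+PD, and 29.5 and 48.6 in CH+LIF, where 7 of the 9 were under 1 FPKM in both cultures. These markers moved in both directions. T, an early mesoderm factor, was called higher than in 2i+LIF (4.25 FPKM) in CH+LIF (27.4) and lower in LIF+PD (0.185). Eomes was higher in 2i (4.21 against 1.53) and CH+LIF (9.41), and Gsc was lower in 2i (0.852 against 6.99) and CH+LIF (0.576). The 8 primed epiblast markers summed to 62.4 and 70.1 in 2i+LIF, 88.2 and 118 in 2i, 123 and 134 in CH+LIF, and 144 and 149 in LIF+PD. Otx2, which marks exit from the naive state, was at 2.12 FPKM in 2i+LIF, 14.8 in 2i, 49.8 in LIF+PD and 2.13 in CH+LIF, where it was not called (adjusted p = 0.961). Against 2i+LIF, 3 of 7 tested were called higher and 1 lower in 2i, and 4 higher and none lower in LIF+PD and CH+LIF. Over all genes tested, 9.77% were called higher and 8.86% lower in 2i, 14.8% and 10.4% in LIF+PD, and 12.2% and 13.3% in CH+LIF. Cldn6 was higher in 2i (15.0 against 3.44 FPKM) and Pou3f1 in LIF+PD (3.55 against 0.487). In CH+LIF, Tcf15 (27.0 against 5.72) and Sox3 (2.10 against 0.411) were higher. Pou3f1 and Sox3 stayed under 1 FPKM in both 2i+LIF cultures and passed the filter only through other conditions. Their calls are among those counted above. Foxd3 of the same list was lower in 2i (9.15 against 19.9 FPKM). Of the 8 fibroblast markers, Col3a1, Dcn and Lum were at 0 in all 8 cultures, and the sum ranged from 0.270 to 4.19 except in replicate 2 of CH+LIF, where it was 17.1 with 14.1 from Postn. Of the 2 that were tested, Col1a1 was not called. The other, Thy1, was called higher than in 2i+LIF (0.138 FPKM) in 2i (2.42), LIF+PD (1.17) and CH+LIF (2.90). Thy1 likewise passed the filter only through conditions other than 2i+LIF. A change in the share of cells that express a gene and a change in RNA per cell cannot be told apart in such bulk samples.

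The seed match of let-7, CTACCTC on the messenger strand, was counted in the longest annotated 3' untranslated region (UTR) of each protein-coding gene (GENCODE M21, GRCm38). It was present in 8.96% of 20966 such regions and in 4 of the 9 members: 2 matches in Lin28a, 4 in Lin28b, 4 in Trim71 and 3 in Ago2, with none in Dis3l2, Drosha, Dgcr8, Xpo5 or Dicer1. Because long regions hold more matches by length alone, each was set beside regions between 0.8 and 1.2 times its length. As many matches or more were found in 2.12% of 2409 regions for Lin28a, 0.24% of 1259 for Lin28b, 0.51% of 788 for Trim71 and 1.33% of 75 for Ago2. Each share counts the member's own region, so it could not be 0, and for Ago2 that region alone makes up the share. The 2 matches of Lin28a and the 4 each of Lin28b and Trim71 are printed with 30 bases of messenger strand around them and the match in capitals. All lie on the minus strand of GRCm38, at chr4:134005179-134005208 and chr4:134004541-134004570 for Lin28a, chr10:45381012-45381041, chr10:45378638-45378667, chr10:45378466-45378495 and chr10:45377050-45377079 for Lin28b, and chr9:114512462-114512491, chr9:114512366-114512395, chr9:114509037-114509066 and chr9:114509011-114509040 for Trim71.
Lin28a site 1: cagcctgttgaaCTACCTCatttttgccga
Lin28a site 2: atcgccacaaacCTACCTCactgtgttgaa
Lin28b site 1: cgggcgggaagtCTACCTCatgcaagcaca
Lin28b site 2: acttgttagtaaCTACCTCtgagtttgaca
Lin28b site 3: tacagcacatggCTACCTCccagctaccac
Lin28b site 4: tgatggcaccgaCTACCTCttcaatcactt
Trim71 site 1: attgcctaagtcCTACCTCagcttaaattt
Trim71 site 2: gataatttctatCTACCTCaactctttgca
Trim71 site 3: agtatggattttCTACCTCaattttggcaa
Trim71 site 4: gcaaaaagttgtCTACCTCacgtcggcacc

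The promoters of the LIN28 genes are shown because Lin28a had the largest difference in log2(FPKM + 1) from 2i+LIF among the 8 tested members in each condition, and Lin28b is its paralog. That ranking depends on the pseudocount. By the ratio of mean FPKM to 2i+LIF, Lin28b was above Lin28a in CH+LIF (6.08 against 5.23) and level with it in 2i (3.21 for both). The 250 bases before the RefSeq start of 8 members (the table holds no entry for Ago2) were searched on both strands for STAT (TTCNNNGAA), TCF/LEF (CTTTGA), ETS (CCGGAAG) and E-box (CACGTG) letters. These are the letters bound by factors downstream of LIF (STAT), GSK3 inhibition (TCF/LEF) and MEK (ETS), and by MYC (E-box). The Lin28a window held 2 STAT matches, 224 and 14 bases before the start, and 1 TCF/LEF match 72 bases before it. The Lin28a entry of the expression values begins at chr4:134018841 on the minus strand, inside this window. The STAT match 14 bases before the RefSeq start therefore lies within that entry. The Lin28b window held 1 E-box 49 bases before the start, and the Drosha window 1 ETS match, read on the opposite strand, 154 bases before its start. The windows of Trim71, Dis3l2, Dgcr8, Xpo5 and Dicer1 held none of these letters. Over 32851 promoters of the same length, 7.02% held the STAT letters, 13.8% TCF/LEF, 6.91% ETS and 6.02% the E-box. A match describes the letters only, and no binding was measured. The windows are chr4:134018817-134019066 for Lin28a and chr10:45470202-45470451 for Lin28b, both on the minus strand of GRCm38.p6, printed 5′ to 3′ with the matches in capitals.
Lin28a promoter: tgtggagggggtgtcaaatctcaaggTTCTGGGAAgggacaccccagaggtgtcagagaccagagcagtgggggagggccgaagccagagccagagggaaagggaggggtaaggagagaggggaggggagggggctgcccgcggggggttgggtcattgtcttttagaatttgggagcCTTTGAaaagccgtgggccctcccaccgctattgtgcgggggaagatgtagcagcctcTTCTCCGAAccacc
Lin28b promoter: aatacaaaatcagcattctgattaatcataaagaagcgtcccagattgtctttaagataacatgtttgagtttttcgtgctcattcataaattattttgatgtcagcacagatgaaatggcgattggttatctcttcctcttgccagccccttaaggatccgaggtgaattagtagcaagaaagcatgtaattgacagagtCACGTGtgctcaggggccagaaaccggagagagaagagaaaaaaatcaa

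The 2 windows also differed in composition. G and C made up 61.2% of the Lin28a window and 39.2% of the Lin28b window, which had the lowest share among the 8 members, and the median over all promoters was 52.4%. The other 6 members lay between 62.8% (Trim71) and 76.0% (Dicer1). Lin28a and Lin28b held 7 and 6 CG pairs, close to the median of 6, and the other 6 members between 17 and 39.

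Trim71 (chr9:114507133-114564369, minus strand), the ubiquitin ligase repressed by let-7, was at 30.6 and 30.5 FPKM in 2i+LIF, 31.2 and 31.7 in 2i, 35.2 and 37.4 in CH+LIF, and 43.0 and 41.5 in LIF+PD. The cultures of each condition lay close together, no 2 conditions overlapped, and the LIF+PD cultures were the highest. Trim71 rose by 0.46 ± 0.077 in LIF+PD against 2i+LIF (adjusted p = 0.00613), a mean FPKM 38.3% higher, and by 0.41 ± 0.077 against 2i (adjusted p = 0.00835). The call against 2i was lost without replicate 1 of LIF+PD (adjusted p = 0.052).

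For Trim71 the 2i and 2i+LIF cultures differed by 0.043, with a 95% interval of -0.14 to 0.22. CH+LIF was 18.8% above 2i+LIF in mean FPKM and did not pass (adjusted p = 0.0588), while it did as TPM (0.0192) and without the filter on low values (0.0436). CH+LIF against LIF+PD gave -0.21 (adjusted p = 0.0732), which passed without the filter (0.0485). The gene overlaps C130032M10Rik on the other strand, which was listed at 0.346 to 2.93 FPKM.

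Dis3l2 (chr1:86703804-87050097, plus strand), the exonuclease that degrades uridylated precursors, was at 13.7 and 12.4 FPKM in 2i+LIF, 10.98 and 10.1 in 2i, 10.3 and 8.73 in LIF+PD, and 11.1 and 12.4 in CH+LIF. Both 2i+LIF cultures were above all others, though the lower of them (12.42) lay just above the higher CH+LIF culture (12.41). Dis3l2 fell by 0.42 on the log2 scale in LIF+PD against 2i+LIF (SE 0.12, adjusted p = 0.0436), a mean FPKM 27.2% lower. This was its only call, and it was lost in 11 of 18 alternatives, among them leaving out any 1 of the 8 cultures (adjusted p 0.0546 to 0.195), TPM (0.136) and the fit of only those 4 cultures (0.0835).

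Drosha (chr15:12824815-12935290, plus strand), the nuclease of the Microprocessor, had the highest FPKM of the 8 tested members in each culture, at 121 and 130 in 2i+LIF, 160 and 206 in 2i, 158 and 138 in LIF+PD, and 211 and 207 in CH+LIF. The 2i+LIF cultures were the lowest and the CH+LIF cultures the highest, though replicate 2 of 2i (206.4) came within 1 FPKM of them (206.8), and the 2 cultures of 2i were far apart. Drosha rose by 0.73 ± 0.13 in CH+LIF (adjusted p = 0.00797) and by 0.53 ± 0.13 in 2i (adjusted p = 0.0304) against 2i+LIF, with mean FPKM 66.6% and 46.2% higher. It was also higher in CH+LIF than in LIF+PD (0.50 ± 0.13, adjusted p = 0.0268). LIF+PD against 2i+LIF gave 0.24, with a 95% interval of -0.070 to 0.54.

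In 6 of the 8 cultures the Drosha value lay above its own deposited upper bound, for example 206.4 against 192.1 in replicate 2 of 2i and 211.3 against 196.9 in replicate 1 of CH+LIF, so these values carry a doubt that the limma fit does not include. The Drosha call in CH+LIF was lost only without replicate 1 of 2i+LIF (adjusted p = 0.0516). The call in 2i was lost in 8 of 18 alternatives: without either 2i+LIF culture (0.138 and 0.0925), without replicate 2 of 2i (0.0977), without either CH+LIF culture (0.0515 and 0.0516), without the filter (0.063), with quantile normalisation (0.0533) and in the fit of only those 4 cultures (0.0872). CH+LIF against LIF+PD was lost without any 1 of those 4 cultures (0.0508 to 0.135), without the filter (0.0543) and with quantile normalisation (0.0508). LIF+PD against 2i passed without replicate 1 of 2i (0.0377).

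Dgcr8 (chr16:18253948-18289249, minus strand), the partner of DROSHA, was listed at 0 FPKM in all 8 cultures. So were the 3 entries that overlap it, Trmt2a, Mir1306 and Gm24572. An exact 0 without counts can be a failed estimate, 17866 of the 38991 genes were listed at 0 in all cultures, and no level or difference of Dgcr8 can be given from these values.

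Xpo5 (chr17:46202855-46242299, plus strand), the exporter of precursor hairpins, was at 38.7 and 37.3 FPKM in 2i+LIF, 43.6 and 51.4 in 2i, 35.6 and 38.1 in LIF+PD, and 50.7 and 48.0 in CH+LIF. The cultures with CH and only 1 other agent were above those of 2i+LIF and LIF+PD, which overlapped. Xpo5 rose by 0.37 ± 0.099 in CH+LIF against 2i+LIF (adjusted p = 0.035), was higher in CH+LIF than in LIF+PD by 0.41 ± 0.099 (adjusted p = 0.0201) and fell by 0.36 on the log2 scale from 2i to LIF+PD (adjusted p = 0.0387). The 2i difference of 0.31 from 2i+LIF did not pass (adjusted p = 0.072) and did without replicate 1 of 2i (0.0449).

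Each call of Xpo5 was lost in some alternatives. CH+LIF against 2i+LIF was lost without either culture of 2i+LIF, CH+LIF or LIF+PD (adjusted p 0.0526 to 0.156), without the filter (0.053) and without the mean-variance trend (0.0591). CH+LIF against LIF+PD was lost without any 1 of those 4 cultures (0.0552 to 0.102). LIF+PD against 2i was lost without any 1 culture other than replicate 1 of 2i (0.0583 to 0.165), as TPM (0.165), without the filter (0.0525), without the trend (0.064) and in the fit of only those 4 cultures (0.103).

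Dicer1 (chr12:104687742-104751952, minus strand), which cuts the precursor to the mature duplex, was at 9.90 and 10.2 FPKM in 2i+LIF, 12.9 and 12.6 in LIF+PD, 15.6 and 18.4 in 2i, and 16.6 and 15.9 in CH+LIF. The 2i+LIF cultures were lowest, those of LIF+PD came next without overlap, and those of 2i and CH+LIF overlapped at the top. Dicer1 rose by 0.69 ± 0.11 in 2i (adjusted p = 0.00544) and by 0.64 ± 0.11 in CH+LIF (adjusted p = 0.00648) against 2i+LIF, with mean FPKM 68.4% and 61.2% higher, and both calls held under all 18 alternatives.

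In LIF+PD, Dicer1 was 26.4% above 2i+LIF in mean FPKM and did not pass (adjusted p = 0.0732). It fell by 0.38 on the log2 scale from 2i to LIF+PD (adjusted p = 0.0384), a call lost without any 1 culture other than replicate 1 of 2i (0.0607 to 0.148), as TPM (0.158) and in the fit of only those 4 cultures (0.107). CH+LIF against LIF+PD gave 0.33 with an adjusted p of 0.0559, which passed in 5 alternatives (0.0331 to 0.0482), among them leaving out replicate 1 (0.0409) or 2 (0.0413) of 2i. CH+LIF and 2i differed by -0.055, with a 95% interval of -0.31 to 0.20.

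Ago2 (chr15:73095844-73184840, minus strand), which carries the guide strand, was at 23.7 and 27.7 FPKM in 2i+LIF, 25.1 and 32.2 in 2i, 26.6 and 25.4 in LIF+PD, and 26.2 and 31.1 in CH+LIF. The cultures of all conditions overlapped. None of its comparisons reached an unadjusted p of 0.05 in the limma fit (lowest 0.34). Its 6 differences ran from -0.13 to 0.15, all with an SE of 0.15, and the widest reach of their 95% intervals was -0.47 to 0.49, so changes up to that size were not excluded. The gene overlaps Chrac1 on the other strand, which was at 18.4 to 21.5 FPKM, and whether the FPKM values used strand is not given in the sources used here.

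Lists of genes whose products work beside these members are read here against the 18.6% of all genes called in 2i, 25.2% in LIF+PD and 25.4% in CH+LIF, each against 2i+LIF. Of 10 nuclear cofactors of cropping and export, none was called in 2i by limma (2 at an unadjusted p below 0.05), 1 in LIF+PD (Ranbp3, 66.0 against 51.7 FPKM) and 1 in CH+LIF (Srrt, which links the cap-binding complex to the Microprocessor, 141 against 112 FPKM), each against 2i+LIF and each higher. The median log2 difference of the 10 was 0.043, 0.11 and 0.061. Of 13 tested DICER partners and silencing effectors, 1, 4 and 4 were called, near the shares over all genes in LIF+PD and CH+LIF, with medians of 0.094, 0.22 and 0.32.

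Among these effectors, Mov10, a helicase associated with Argonaute, was higher in 2i (144 FPKM) and LIF+PD (166) and lower in CH+LIF (68.3) than in 2i+LIF (109), with adjusted p of 0.0118, 0.00179 and 0.00162. Tarbp2, the double-stranded RNA-binding partner of DICER1, was higher in LIF+PD than in 2i+LIF (136 against 93.0 FPKM, adjusted p = 0.00891). Tnrc6c, a GW182 scaffold that recruits deadenylases, was higher in LIF+PD (22.3) and CH+LIF (23.9) than in 2i+LIF (15.7), and the chaperone Hsp90ab1 was higher in CH+LIF (4502 against 3376). Ago4 was the 1 list gene that did not reach the filter.

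Of 9 enzymes that tail or degrade RNA beside DIS3L2, none was called higher by limma (none at an unadjusted p below 0.05) and 1 lower in 2i, 1 higher and 2 lower in LIF+PD, and 2 higher and none lower in CH+LIF, with medians of 0.14, 0.040 and 0.047. With 1, 3 and 2 of 9 called, the list lay near the shares over all genes. Zcchc11 (TUT4), the uridyl transferase that LIN28A recruits to let-7 precursors, was at 38.9 and 46.1 FPKM in 2i+LIF and between 36.8 and 50.5 elsewhere, and was not called. Zc3h12a, an endonuclease that cuts precursor loops, was higher in LIF+PD (4.62 against 2.46 FPKM, adjusted p = 0.0221) and in CH+LIF (5.69, adjusted p = 0.00764). Exosc10, a nuclear exosome nuclease, was lower in 2i (69.0 against 87.8 FPKM) and in LIF+PD (66.2), Xrn2 lower in LIF+PD (127 against 188) and Exosc3 higher in CH+LIF (103 against 59.97).

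Genes known as let-7 targets, a list of 22 of which 19 were tested, moved in both directions. Against 2i+LIF, 7 were higher and 3 lower in 2i, 5 higher and 3 lower in LIF+PD, and 8 higher and 4 lower in CH+LIF, with median log2 differences of 0.38, 0.059 and 0.23. Over all genes tested, 9.77% were called higher and 8.86% lower in 2i, 14.8% and 10.4% in LIF+PD, and 12.2% and 13.3% in CH+LIF. Of the 22 genes, 15 held the seed match in the longest 3' UTR. Nr6a1, an orphan nuclear receptor with 8 matches, was higher in 2i (12.1 against 6.67 FPKM, adjusted p = 0.00441) and in CH+LIF (11.4).

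Some let-7 targets moved one way in 1 condition and the other way in another. Hmga2, a chromatin protein with 4 matches, was lower in 2i (4.42 against 15.3 FPKM, adjusted p = 0.0156) and in LIF+PD (6.29, adjusted p = 0.0388) and higher in CH+LIF (32.98, adjusted p = 0.0498). Cdk6, a cell cycle kinase with no match, was higher in 2i (7.41 against 4.23 FPKM) and CH+LIF (12.1) and lower in LIF+PD (0.758). Mycn was higher in LIF+PD (124 against 75.1 FPKM) and lower in CH+LIF (59.6), while Myc, a target without a match, was higher in CH+LIF (45.8 against 6.96 FPKM, adjusted p = 0.00235).

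Other targets moved alike in the conditions that called them. Igf2bp2, an RNA-binding protein with 1 match, was lower in 2i (59.7 against 98.1 FPKM), LIF+PD (56.6) and CH+LIF (55.4), and its paralog Igf2bp1, with 4 matches, was higher in all 3 (135, 152 and 157 against 83.8). Ccnd1 (cyclin D1) was higher in 2i (119 against 67.1 FPKM) and LIF+PD (91.8), and Igf2bp3 was lower in 2i (39.1 against 58.6) and CH+LIF (42.2).

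**Figure D4:**
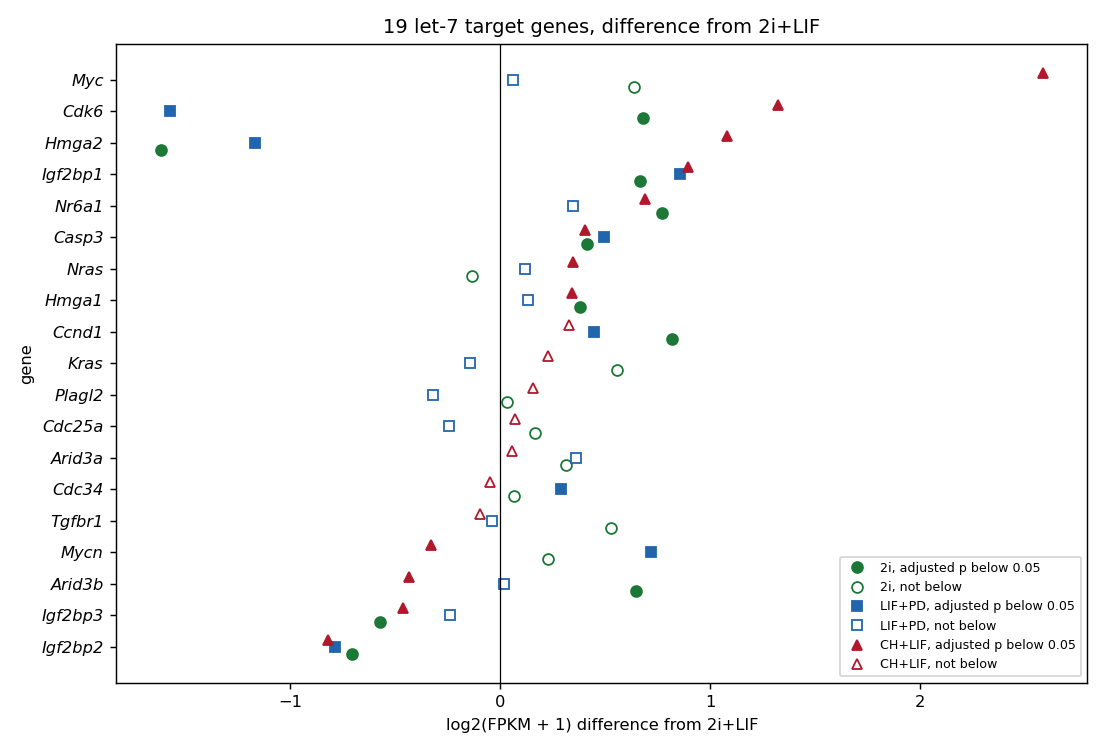
Difference in log2(FPKM + 1) from 2i+LIF (horizontal axis) of the 19 tested let-7 target genes in 2i (circles), LIF+PD (squares) and CH+LIF (triangles), ordered by the CH+LIF difference; filled symbols have an adjusted p below 0.05. Genes lie on both sides of 0 in each condition, and Hmga2, Cdk6, Mycn and Arid3b have filled symbols on both sides.

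The substrates of the pathway were seen only in part. The 9 let-7 and 7 miR-290 family hairpin entries were listed at 0 in all 8 cultures, as were both entries each of AU018091, the host of the miR-290 cluster, and Rian. Mature microRNAs were not measured. The miR-290 family, the main microRNA family of ESCs, is represented by the 3 forms that share the seed in capitals.
miR-291a-3p: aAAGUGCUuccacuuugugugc
miR-294-3p: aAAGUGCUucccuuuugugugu
miR-295-3p: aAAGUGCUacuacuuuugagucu

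Of 5 tested microRNA host transcripts, none was called in 2i by limma (2 at an unadjusted p below 0.05), and Mirg, a host in the imprinted Dlk1-Dio3 region, was called in the other 2 conditions. Among all genes tested, 18.6% were called in 2i, 25.2% in LIF+PD and 25.4% in CH+LIF. The 1 call of 5 in LIF+PD and in CH+LIF thus lay near those shares. Mirg was at 58.8 and 67.4 FPKM in 2i+LIF, 79.5 and 73.6 in 2i, 48.5 and 52.4 in LIF+PD, and 96.5 and 100.3 in CH+LIF. It was lower in LIF+PD (adjusted p = 0.0489) and higher in CH+LIF (adjusted p = 0.00438) than in 2i+LIF.

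The genes whose log2(FPKM + 1) followed Lin28a most closely over the 8 cultures were Rassf3 (Pearson's r = 0.986), Trp53bp2 (0.980) and Cenpj (0.980). Those closest to Lin28b were Gm12245 (0.991), Usp15 (0.986) and Lancl2 (0.986). Lin28a and Lin28b followed each other with r = 0.909, Dicer1 and Drosha followed Lin28a with 0.864 and 0.847, and Trim71 and Dis3l2 gave 0.502 and -0.493. These coefficients are descriptions over 4 conditions with 2 cultures each, in which the points share conditions and scaling.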

How the data were processed

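RNA-seq of 8 ESC cultures, 2 per condition, was used. The authors aligned single-end reads of rRNA-depleted libraries with tophat2 to mm10 (Ensembl 75 genes) and discarded reads without a unique position. The processing notes also name Cufflinks and Cuffdiff. The authors deposited FPKM per gene and culture, with bounds and without pooling. FPKM depends on the transcript lengths and read totals used, and depth is unknown. Deposited starts were shifted by 1 to 1-based positions.

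Values were tested as log2(FPKM + 1), pseudocount 1, for genes that reached 1 FPKM in 2 or more cultures, with limma 3.58.1 (R 4.3.3), trended empirical Bayes variance, 4 residual degrees of freedom, 6 contrasts and an F test, and Benjamini-Hochberg adjustment over 12927 genes. The code of the test was checked on simulated data with independent noise and few changed genes, which cannot vouch for the calls made here. The members and lists were chosen with earlier results of these data known. Named were all 9 members and, of each list and comparison with 2i+LIF, the 2 called genes with the largest rise and the 2 with the largest fall. Among those named outside this rule were Ago4, the fibroblast markers Col1a1, Col3a1, Dcn, Lum and Postn, and the genes most correlated with Lin28a and Lin28b. Zcchc11 and the further conditions of named list genes were added after their values were seen. Sequences are from RefSeq (GRCm38.p6) and GENCODE M21, searched in Python 3.11.15.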

Additional observations from a re-analysis of the deposited data

How the results depend on the processing

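No called member difference changed direction in the 18 alternatives. The number of members called moved by more than 1.5 times as follows. For CH+LIF against 2i (2 members) it was 1 with a filter of 5 FPKM in at least 2 cultures, which removes Lin28b, and 1 with only the 2 groups compared. For LIF+PD against 2i (3 members) it was 1 as TPM and 1 with only the 2 groups compared, and the cause was not tested. Leaving out 1 culture at a time, which leaves fewer samples and lets the remaining culture of a condition borrow the spread of the others, gave 2 to 5 members for 2i against 2i+LIF, 2 for LIF+PD against 2i+LIF, 3 to 5 for CH+LIF against 2i+LIF, 0 to 4 for LIF+PD against 2i, 1 to 2 for CH+LIF against 2i, 2 to 5 for CH+LIF against LIF+PD and 4 to 6 for any condition. The limma count of 0 arose without replicate 1 of LIF+PD, with 3 members at an unadjusted p below 0.05.

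Over all genes, leaving out 1 culture called between 1167 and 2141 genes for 2i against 2i+LIF (2408 with all), 1687 and 3342 for LIF+PD (3263), 1520 and 3330 for CH+LIF (3286), 1970 and 2966 for LIF+PD against 2i (3242), 1494 and 2705 for CH+LIF against 2i (3089) and 2311 and 3991 for CH+LIF against LIF+PD (3928). Fits of only the 2 groups called 1500 for 2i against 2i+LIF and 1808 for CH+LIF against 2i.

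Over all genes tested, the deviations of cultures with the same replicate number were hardly correlated (r -0.0283 to 0.0925). This cannot show whether the numbers mark a pairing, since a shared effect on few genes would not appear in it. A replicate block in the fit raised the calls over all genes from 2408 to 2547 for 2i and from 3286 to 3519 for CH+LIF, both against 2i+LIF. With a replicate block, 4, 3 and 5 members were called in 2i, LIF+PD and CH+LIF against 2i+LIF, and no member's call changed. In the lists of few genes, 2 host transcripts were called under the block in LIF+PD and in CH+LIF, and 1 nuclear cofactor in LIF+PD against 2i and in CH+LIF against 2i. With size factors, 0 cofactors were called in LIF+PD against 2i+LIF, 1 in CH+LIF against 2i and 3 in CH+LIF against LIF+PD. Read depth is unknown, and Lin28b has the widest bounds of the tested members.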
